A study of Mus musculus with 6 samples.

Results

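The mechanosensory hair cells of the cochlea carry bundles of stereocilia, rigid protrusions each built around a core of parallel, crosslinked actin filaments. The core narrows at the base, the taper, where a dense rootlet anchors it in the cell body, and complexes at the tip set its length. A set of 10 genes of this machinery was examined: Espn for crosslinking of the core; Whrn, Eps8, Eps8l2 and Myo3a for the tip; Triobp for the rootlet; Grxcr1 for the shaft; and Ptprq, Clic5 and Rdx for the base. The genes were taken by symbol from this functional group. The rule uses no expression value, but the set was drawn up with earlier results of these data known. All 10 were among the 48709 mouse genes of the count table and all 10 among the 20733 tested.

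RNA-seq was performed on whole cochleae of 3 knock-in mice, genotype Hgfdel10Neo/del10Neo, and of 3 wild-type littermates, genotype Hgf+/+. The knock-in allele combines a deletion of 10 bp in intron 5 of Hgf, on both chromosomes, with a Neo cassette. The study set out to model DFNB39, an inherited deafness in humans with HGF as its gene. The mice were 5 to 27 weeks old, and single ages are not analysed here. The p-values set the difference between genotypes against the spread among mice of the same genotype, 3 in each group. Cochleae were pulverized whole, so hair cells were a minor part of each sample, and fewer cells of a type could not be told apart from less RNA per cell. Counts of any of the 10 genes may come from other cells too, and the part from hair cells was not measured.

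Libraries held 24005234 to 42312291 gene counts. Hgf stood at 9.23, 10.4 and 10.5 CPM (counts relative to library size, scaled by TMM, the trimmed mean of M values) in knock-in cochleae. It stood at 15.4, 16.2 and 15.2 CPM in wild-type cochleae, and no knock-in library reached a wild-type level (log2 fold change -0.63, SE 0.111; edgeR quasi-likelihood adjusted p = 0.246). Reads of the Neo cassette numbered 71, 199 and 5 in knock-in libraries 1 to 3, against 5, 8 and 10 in wild-type libraries 1 to 3. The library labelled knock-in replicate 3 was thus at the wild-type level of Neo although low in Hgf, and values without it are given below. Xist was abundant in knock-in replicate 3 and wild-type replicate 2 (17489 and 25380 counts) and had at most 30 counts in the other 4 libraries. All 14 hair cell markers examined, among them Otof, Slc17a8 and Slc26a5, had counts, and edgeR called 0 of 14. At an unadjusted p under 0.05 edgeR gave 2 of them higher in knock-in and 0 lower, beside 4.5% of all genes in either direction. Their levels summed to 167, 171 and 172 CPM in knock-in and 156, 172 and 158 CPM in wild-type cochleae.

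None of the 10 genes passed the test between genotypes. With edgeR's quasi-likelihood test and Benjamini-Hochberg adjustment over all genes tested, 0 of the 10 were called, beside 0.0338% of all genes (7 of 20733; 0.00965% higher and 0.0241% lower). At an unadjusted p under 0.05 edgeR also gave 0 of 10, beside 4.5% of all genes. DESeq2 and limma-voom called 0 of the 10 as well. The knock-in and wild-type libraries overlapped for every one of the 10, beside 8.72% of all genes with groups that did not overlap. At these shares, counts of 0 in 10 genes do not set the 10 apart from other genes. Fold changes were positive for 7 genes and negative for 3, with a median log2 fold change of 0.11 against 0.00082 over all genes tested. The median of the 10 was 0.047 when knock-in replicate 2 was left out, 0.052 when wild-type replicate 1 was, 0.158 when wild-type replicate 2 was, 0.048 when wild-type replicate 3 was, and 0.063 with the hair cell markers as a covariate. The median absolute log2 fold change was 0.129 for the 10 genes and 0.12 for all genes.

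**Figure D1:**
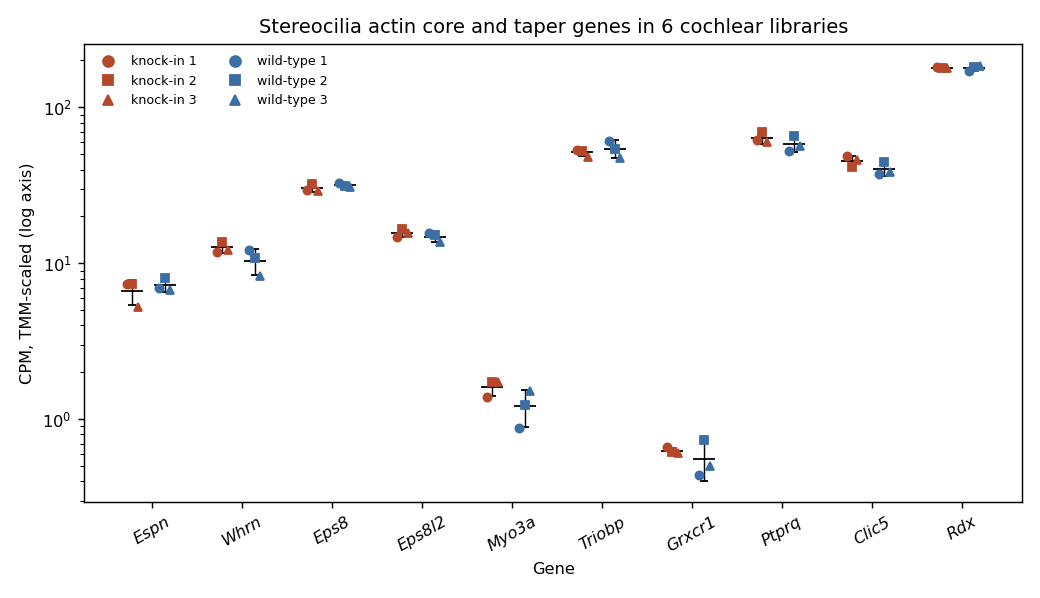
CPM (log axis) of the 10 genes in each library, with the group mean and SD (n = 3 each) as bars, knock-in left of wild type. Levels run from under 1 CPM for Grxcr1 to about 180 CPM for Rdx (mean 179.97 CPM in knock-in), and the genotypes overlap for every gene.

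Espn encodes espin, the actin-bundling protein of the stereocilia core. Its level was 7.36, 7.33 and 5.24 CPM in knock-in cochleae and 6.95, 8.10 and 6.78 CPM in wild-type cochleae. The lowest value was that of the library labelled knock-in replicate 3, and the other 5 libraries ran from 6.78 to 8.10 CPM. Espn averaged 6.64 ± 1.21 CPM in knock-in and 7.27 ± 0.72 CPM in wild-type cochleae (SD, n = 3 each). The log2 fold change was -0.13 (95% interval -0.50 to 0.25; edgeR adjusted p = 0.975), and it was 0.012 without that library. It was -0.20 without either of the other knock-in libraries and -0.042 without wild-type replicate 2. In GRCm38 Espn occupies bases 152120331 to 152152371 of chromosome 4, reverse strand, and has 20 annotated transcripts. Several espin proteins of different length are known from this gene, and counts per gene pool them. RefSeq (GRCm38.p6) lists 3 separate starts for Espn, which is why the 250 bases before each are shown here, written 5′ to 3′ on the gene's strand with every CG dinucleotide in capitals. The windows, in the order of transcription, are chr4:152152390-152152639 (upstream), chr4:152136326-152136575 (middle) and chr4:152128926-152129175 (downstream).
Espn upstream: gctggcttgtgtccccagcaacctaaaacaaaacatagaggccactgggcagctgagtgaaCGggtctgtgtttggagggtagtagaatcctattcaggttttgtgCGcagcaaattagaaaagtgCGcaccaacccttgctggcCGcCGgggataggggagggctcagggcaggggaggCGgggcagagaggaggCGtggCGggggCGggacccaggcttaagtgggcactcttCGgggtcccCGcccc
Espn middle: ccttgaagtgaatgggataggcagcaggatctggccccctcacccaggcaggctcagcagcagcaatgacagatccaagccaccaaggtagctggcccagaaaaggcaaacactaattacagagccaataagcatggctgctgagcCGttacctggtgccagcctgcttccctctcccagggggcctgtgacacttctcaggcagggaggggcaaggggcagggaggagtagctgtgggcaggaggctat
Espn downstream: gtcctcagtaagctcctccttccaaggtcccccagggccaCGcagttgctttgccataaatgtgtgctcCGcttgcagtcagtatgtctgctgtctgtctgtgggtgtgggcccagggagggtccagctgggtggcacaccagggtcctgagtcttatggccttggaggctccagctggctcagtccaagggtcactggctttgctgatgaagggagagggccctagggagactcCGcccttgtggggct
The upstream window held 11 CG dinucleotides, the middle window 1 and the downstream window 3. Among 32851 windows of the same length before RefSeq starts, the median was 6. The middle and downstream windows lie inside the gene but outside its annotated exons, and 8 annotated transcripts start within 50 bases of the middle start against 1 each at the others.

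Whrn encodes whirlin, a PDZ-domain scaffold that is carried to stereocilia tips by myosin XV. Its level was 11.9, 13.8 and 12.3 CPM in knock-in and 12.2, 10.9 and 8.28 CPM in wild-type cochleae. The wild-type values spread more widely (CV 19.0%) than the knock-in values (CV 7.98%), with wild-type replicate 3 lowest. Whrn averaged 12.7 ± 1.01 CPM in knock-in and 10.4 ± 1.98 CPM in wild-type cochleae (SD, n = 3 each). Of the 10 genes, Whrn had the smallest unadjusted p (0.0982 in edgeR; adjusted p = 0.966), with a log2 fold change of 0.28 (95% interval -0.06 to 0.63). Leaving out knock-in replicate 3 gave 0.31, and leaving out wild-type replicate 3 gave 0.13. Leaving out wild-type replicate 1 gave 0.41, the only refit in which a gene of the set reached an unadjusted p under 0.05 (edgeR adjusted p = 0.999).

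Eps8 encodes an actin-capping and bundling protein of the tip complex, and Eps8l2 a related protein that is needed to maintain stereocilia. Eps8 was at 29.7, 32.5 and 29.3 CPM in knock-in and 32.7, 31.3 and 31.0 CPM in wild-type cochleae. Both groups varied little, with CVs of 5.74% in knock-in and 2.92% in wild-type cochleae. Eps8 averaged 30.5 ± 1.75 CPM in knock-in and 31.7 ± 0.923 CPM in wild-type cochleae (SD, n = 3 each). The log2 fold change was -0.05 (95% interval -0.27 to 0.17; edgeR adjusted p = 0.982). Eps8l2 was at 14.7, 16.6 and 15.6 CPM in knock-in and 15.7, 15.1 and 13.6 CPM in wild-type cochleae, with a log2 fold change of 0.08 (95% interval -0.17 to 0.33; edgeR adjusted p = 0.976). Eps8l2 averaged 15.6 ± 0.93 CPM in knock-in and 14.8 ± 1.06 CPM in wild-type cochleae (SD, n = 3 each). Without knock-in replicate 3 the log2 fold changes were -0.027 for Eps8 and 0.080 for Eps8l2. Over all single libraries left out, Eps8 ran from -0.10 (without knock-in replicate 2) to -0.027 and Eps8l2 from 0.018 (without wild-type replicate 3) to 0.12 (without knock-in replicate 1). Of the exonic bases of Eps8l2, 32.2% are shared with B230206H07Rik, an annotated transcript on the opposite strand. Without a stated strand setting, the reads of this pair cannot be told apart. B230206H07Rik itself had 30 to 61 counts in knock-in and 35 to 84 in wild-type libraries, against 360 to 489 and 391 to 572 counts for Eps8l2.

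Myo3a encodes a class III myosin with a kinase domain that moves espin family proteins toward stereocilia tips. It had 46, 51 and 40 counts in knock-in and 22, 37 and 64 counts in wild-type libraries, or 1.39, 1.74 and 1.73 CPM against 0.883, 1.24 and 1.53 CPM. Wild-type replicate 1 was lowest, and wild-type replicate 3 lay within the knock-in range. Myo3a averaged 1.62 ± 0.201 CPM in knock-in and 1.22 ± 0.323 CPM in wild-type cochleae (SD, n = 3 each). Myo3a had the largest log2 fold change of the set, 0.38 (95% interval -0.19 to 0.95; edgeR adjusted p = 0.966), and it was 0.33 without knock-in replicate 3. Over the refits it ran from 0.21, without wild-type replicate 1, to 0.59, without wild-type replicate 3. At a mean of 43.3 counts per library, counting alone gives a CV of 15.2%, and the CVs were 12.4% in knock-in and 26.5% in wild-type cochleae.

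Triobp encodes an actin-bundling protein whose long isoforms form the stereocilia rootlet. Other isoforms of the gene are made in many cell types. Its level was 53.5, 52.6 and 48.4 CPM in knock-in and 61.4, 54.3 and 47.2 CPM in wild-type cochleae. Wild-type libraries held both the highest and the lowest value. Triobp averaged 51.5 ± 2.76 CPM in knock-in and 54.3 ± 7.10 CPM in wild-type cochleae (SD, n = 3 each). The log2 fold change was -0.07 (95% interval -0.33 to 0.18; edgeR adjusted p = 0.979), it was -0.032 without knock-in replicate 3 and changed sign to 0.021 without wild-type replicate 1. It was -0.17 without wild-type replicate 3. In GRCm38 Triobp occupies bases 78947724 to 79005869 of chromosome 15, forward strand, with 12302 exonic bases. RefSeq lists 2 starts, and 3 annotated transcripts begin within 50 bases of each, so the counts do not separate rootlet isoforms from the others. The 250 bases before the upstream start (chr15:78947474-78947723) and before the downstream start (chr15:78982806-78983055) are shown for that reason, 5′ to 3′ with CG in capitals.
Triobp upstream: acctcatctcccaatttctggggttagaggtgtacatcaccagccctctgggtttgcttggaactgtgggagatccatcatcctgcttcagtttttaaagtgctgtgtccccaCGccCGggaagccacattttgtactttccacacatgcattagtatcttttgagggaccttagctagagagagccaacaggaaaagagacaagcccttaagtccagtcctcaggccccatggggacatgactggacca
Triobp downstream: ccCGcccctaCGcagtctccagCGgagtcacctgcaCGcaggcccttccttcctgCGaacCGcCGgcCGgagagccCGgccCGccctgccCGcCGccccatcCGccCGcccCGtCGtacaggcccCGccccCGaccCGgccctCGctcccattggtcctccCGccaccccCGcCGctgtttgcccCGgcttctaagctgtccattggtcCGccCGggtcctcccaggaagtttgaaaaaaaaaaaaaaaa
The upstream window held 2 CG dinucleotides and the downstream window 26, at 50.4% and 69.6% G and C. Over all RefSeq windows the lower and upper quartiles were 2 and 16.

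Grxcr1 encodes a glutaredoxin-domain protein that lies along the length of stereocilia, and mouse mutants have thin stereocilia. It had 22, 18 and 14 counts in knock-in and 11, 22 and 21 counts in wild-type libraries, the lowest counts of the set. These are 0.663, 0.614 and 0.606 CPM in knock-in and 0.442, 0.739 and 0.501 CPM in wild-type cochleae, and the wild-type values enclosed the knock-in values. Grxcr1 averaged 0.628 ± 0.0311 CPM in knock-in and 0.561 ± 0.158 CPM in wild-type cochleae (SD, n = 3 each). The log2 fold change was 0.17 (95% interval -0.50 to 0.83; edgeR adjusted p = 0.982), and 0.18 without knock-in replicate 3. Leaving out wild-type replicate 1 gave 0.042, leaving out wild-type replicate 2 gave 0.40 and leaving out wild-type replicate 3 gave 0.071; the value was 0.068 with the hair cell markers as a covariate. At a mean of 18 counts per library, counting alone gives a CV of 23.6%, beside CVs of 4.95% in knock-in and 28.1% in wild-type cochleae. Grxcr1 lies on the chromosome of the edited gene, 51.4 Mb from Hgf, on chromosome 5 from 68031835 to 68166398.

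Ptprq encodes a receptor-type phosphatase of the shaft connectors near the stereocilia base. Its level was 61.7, 70.0 and 59.7 CPM in knock-in and 52.4, 65.2 and 56.9 CPM in wild-type cochleae, a log2 fold change of 0.13 (95% interval -0.12 to 0.39; edgeR adjusted p = 0.966). The highest values were those of knock-in replicate 2 and wild-type replicate 2, and the ranges overlapped. Ptprq averaged 63.8 ± 5.46 CPM in knock-in and 58.2 ± 6.49 CPM in wild-type cochleae (SD, n = 3 each). Clic5 encodes a chloride intracellular channel family protein that is found with radixin at the base. Its level was 48.7, 41.3 and 46.2 CPM in knock-in and 37.7, 45.01 and 38.7 CPM in wild-type cochleae. Of 3 knock-in values, 2 lay above all wild-type values, and the lowest knock-in value lay inside the wild-type range. Clic5 averaged 45.4 ± 3.78 CPM in knock-in and 40.5 ± 3.95 CPM in wild-type cochleae (SD, n = 3 each). The log2 fold change of Clic5 was 0.17 (95% interval -0.08 to 0.41; edgeR adjusted p = 0.966). Without knock-in replicate 3 the values were 0.18 for Ptprq and 0.15 for Clic5. Ptprq was at 0.060 when knock-in replicate 2 was left out, 0.062 when wild-type replicate 1 was, 0.22 when wild-type replicate 2 was, and 0.058 with the hair cell markers as a covariate. Clic5 ranged from 0.11 to 0.25 with 1 library left out, lowest without knock-in replicate 1 and highest without wild-type replicate 2.

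Rdx encodes radixin, which links the plasma membrane to actin at the stereocilia base and is also made in many other cells. It was the most abundant gene of the set, at 182, 179 and 179 CPM in knock-in and 170, 183 and 186 CPM in wild-type cochleae. Rdx averaged 180.0 ± 1.92 CPM in knock-in and 179.6 ± 8.13 CPM in wild-type cochleae (SD, n = 3 each). The log2 fold change was 0.0030 (95% interval -0.21 to 0.21; edgeR adjusted p = 0.999), the narrowest interval of the set, and 0.0068 without knock-in replicate 3. Over 14 refits its log2 fold change ran from -0.035 to 0.024, with the sign changed in 4.

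The width of the intervals differed between the genes, narrowest for Rdx and widest for Grxcr1. In the edgeR fit the 95% interval of each of the 10 genes lay within a 2-fold change in either direction. The lowest bound was a fold of 0.705, for Espn, and the highest 1.94, for Myo3a. For Rdx the bounds were 0.867 and 1.16. In DESeq2 8 of the 10 intervals lay within 2-fold, and when a library was left out 8 to 10 did. In the authors' deposited table the log2 fold changes ran from -0.13 for Espn to 0.38 for Myo3a, with adjusted p of 0.9997 for 9 genes and none given for Grxcr1.

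**Figure D2:**
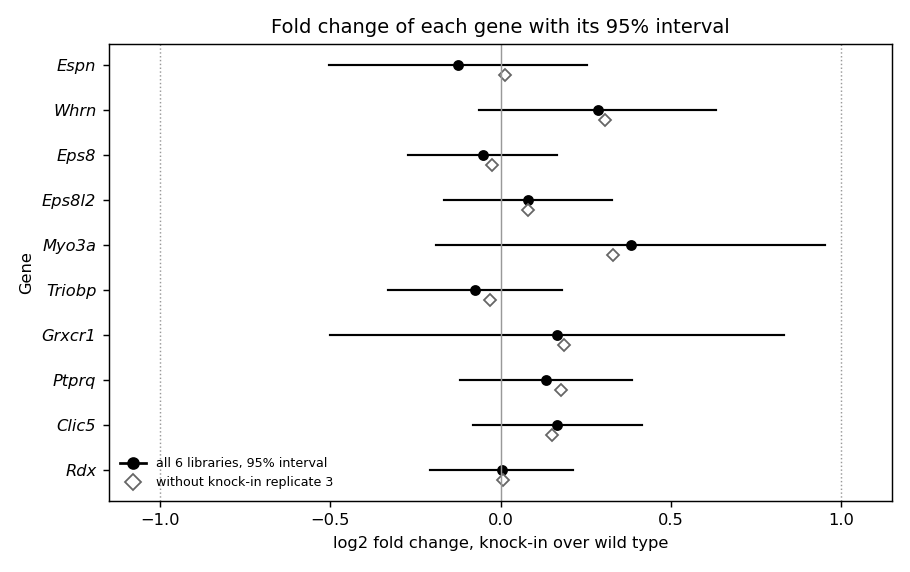
Log2 fold change of knock-in over wild type for each gene (filled circles) with its 95% interval from the edgeR fit of all 6 libraries; open diamonds give the value without knock-in replicate 3 and dotted lines mark a 2-fold change. Every interval includes 0 and lies inside the dotted lines, and Espn moves across 0 to 0.012.

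**Figure D3:**
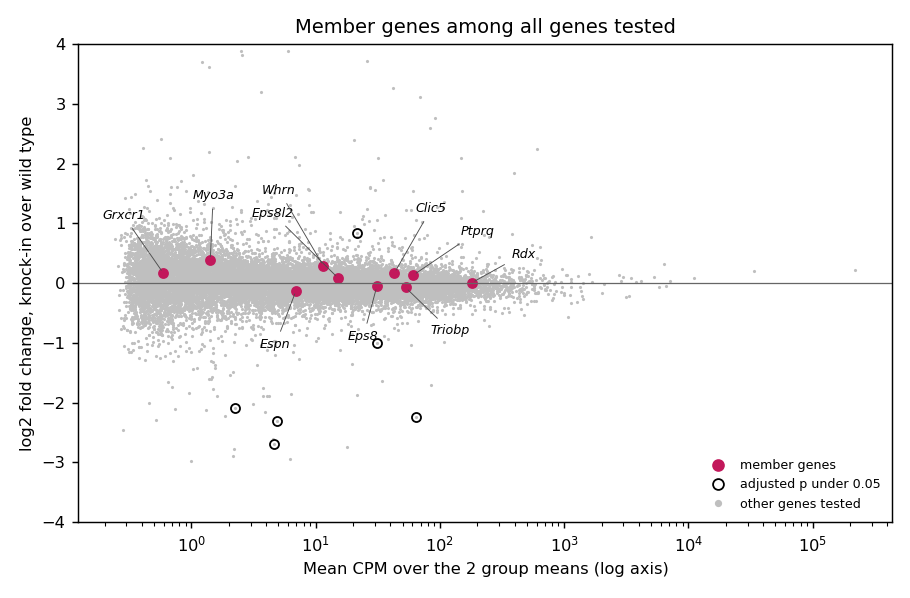
Log2 fold change against mean CPM (log axis) for the 20733 genes tested, with the 10 stereocilia genes as filled circles and the 7 genes with adjusted p under 0.05 as open circles. The stereocilia genes lie between -0.13 and 0.38, inside the cloud of other genes; 4 genes lie beyond the axis limit of 4 in either direction.

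No single library was highest or lowest for all 10 genes. Wild-type replicate 1 was lowest for 5 of the 10 genes and wild-type replicate 3 for 3, and knock-in replicate 2 was highest for 4. Averaged over the 10 genes on a log2 scale centred per gene, the knock-in libraries stood at 0.046, 0.107 and -0.0033. The wild-type libraries stood at -0.100, 0.056 and -0.106, so wild-type replicate 2 exceeded 2 of the knock-in libraries. Expressed relative to the summed hair cell markers, Espn came to 4.403%, 4.28% and 3.04% of that sum in knock-in and 4.46%, 4.71% and 4.30% in wild-type cochleae. On this scale too, the groups overlapped for all 10 genes. Of 17236 other genes at 1 CPM or more, those nearest to the averaged profile over the 6 libraries were Arhgap21, B930086L07Rik, AI429214, Dubr and Pde3a. Their root mean square differences from it were 0.018 to 0.030 on the log2 scale.

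Levels between genes were compared per length, as CPM per kb of annotated exon (mean of the 6 libraries). Rdx was highest at 38.8, then Ptprq at 8.13, Clic5 at 4.89, Triobp at 4.30, Eps8l2 at 2.83, Eps8 at 2.52, Whrn at 1.57, Espn at 0.841, Grxcr1 at 0.555 and Myo3a at 0.179. The highest and lowest thus differed 217-fold. Over the 6 libraries, the ranges of Clic5 and Triobp overlapped, as did those of Eps8l2 and Eps8 and of Espn and Grxcr1, and other neighbours in this order did not overlap. Exon length includes rarely used exons, which lowers the value for genes with many transcripts.

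Several of the genes belong to families whose other members are also made in the cochlea. Radixin is an ERM protein, and its relatives moesin (Msn) and ezrin (Ezr) stood at 38.1 and 29.1 CPM per kb, close to Rdx at 38.8. Clic4, at 39.0, was far above Clic5 at 4.89. Myo3b, the other class III myosin gene, stood at 0.714 against 0.179 for Myo3a, Grxcr2 at 1.198 against 0.555 for Grxcr1, and Espnl at 0.682 against 0.841 for Espn. Eps8l1 was at 1.46, and Eps8l3 had 1 to 3 counts per library and was not tested. No window of 93 bases, the read length, was shared between an annotated transcript of any of the 10 genes and one of these relatives. Windows were shared only by Eps8l2 with B230206H07Rik (21.2% of its windows) and by Triobp with Gm10865 (0.0158%). Of 14 relatives, 13 were tested and edgeR called 0. Eps8l1 was at 3.83, 9.31 and 7.66 CPM in knock-in and 7.55, 13.1 and 11.3 CPM in wild-type cochleae (log2 fold change -0.63, 95% interval -1.31 to 0.05; edgeR adjusted p = 0.966). Msn had a log2 fold change of -0.31 (95% interval -0.61 to 0.0019; edgeR adjusted p = 0.966). DESeq2 and limma-voom called 0 relatives too, and at an unadjusted p under 0.05 edgeR gave 0.

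**Figure D4:**
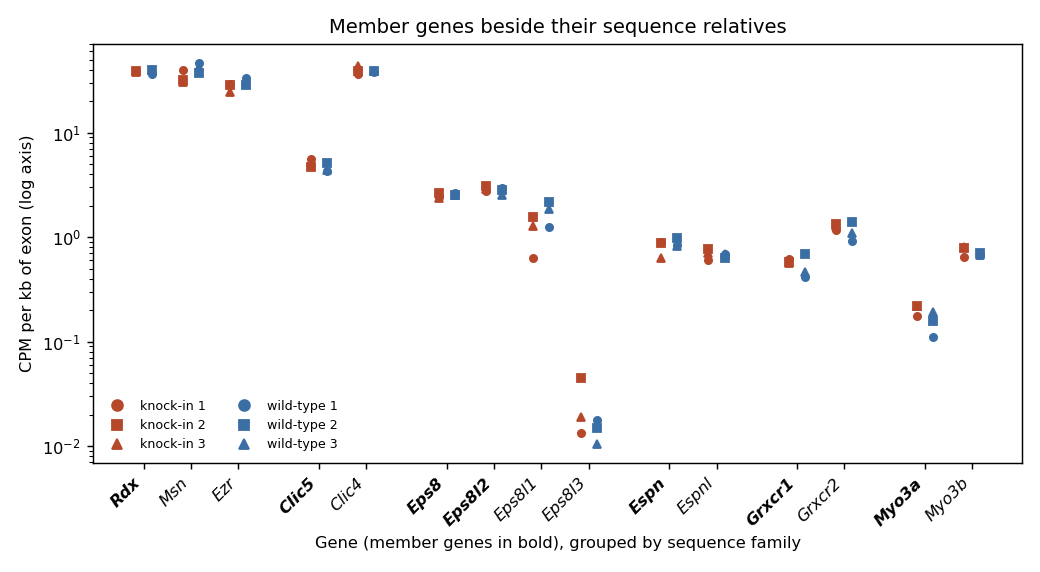
CPM per kb of exon (log axis) in each library for 6 of the stereocilia gene families, knock-in left of wild type, with the studied genes in bold. Rdx, Msn and Ezr lie within a factor of 2 of each other on average, Clic4 lies above Clic5, and Myo3b above Myo3a.

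A list of 25 other genes of stereocilia actin was set beside the 10. It spans actins, crosslinkers, tip motors, capping proteins and turnover factors. All 25 were tested and edgeR, DESeq2 and limma-voom each called 0. Fold changes were positive for 12 and negative for 13 (median log2 fold change -0.0017). At an unadjusted p under 0.05 edgeR gave 1, Actg1, which encodes gamma-actin, an actin of the core. It was at 219, 210 and 222 CPM in knock-in and 322, 234 and 247 CPM in wild-type cochleae, with the highest value in wild-type replicate 1. Its log2 fold change was -0.30 (SE 0.133; edgeR adjusted p = 0.966). Actb, the gene of beta-actin, was at 3215, 3144 and 2837 CPM in knock-in and 4210, 3011 and 3435 CPM in wild-type cochleae, again highest in wild-type replicate 1 (log2 fold change -0.21, SE 0.158; edgeR adjusted p = 0.966). That library also had the highest summed macrophage markers, 702 CPM, where knock-in libraries had 477 to 526 CPM and the other wild-type libraries 436 and 512 CPM. The part of this in the actin values was not tested.

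No other gene of the list passed the test either. Fscn2, a fascin of hair cell stereocilia, was at 3.89, 3.75 and 3.59 CPM in knock-in and 3.49, 3.23 and 3.32 CPM in wild-type cochleae, without overlap (log2 fold change 0.16, SE 0.158; edgeR adjusted p = 0.971). Cfl1, which encodes the actin-severing protein cofilin, also had groups without overlap, at 271 to 285 CPM in knock-in and 291 to 331 CPM in wild-type cochleae (log2 fold change -0.20; edgeR adjusted p = 0.966). With Actg1, 3 of the 25 genes had groups without overlap, beside 8.72% of all genes. Log2 fold changes were 0.17 for Myo15, the tip motor gene, 0.0022 for Myo7a, -0.07 for Pls1, a plastin gene, and -0.02 for Tprn, the gene of taperin at the stereocilia base. They were 0.20 for Elmod1 and -0.51 for Baiap2l2, which was under 1 CPM in every library. Xirp2, an actin-binding protein of hair cells that is also abundant in muscle, was at 383, 285 and 138 CPM in knock-in and 180, 273 and 195 CPM in wild-type cochleae. Summed skeletal muscle markers were 12607, 8672 and 6050 CPM in knock-in and 8093, 12755 and 8249 CPM in wild-type cochleae. Within each group the library with the highest muscle sum had the highest Xirp2, and the part of muscle RNA in this gene was not tested.

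Among marker lists of other cell types, calls were made for pigment cell and salivary gland genes. Of 8 pigment cell markers, edgeR called 4 lower, beside 0.0338% of all genes called in either direction. The 8 markers summed to 76.9 to 79.8 CPM in knock-in and 176 to 199 CPM in wild-type cochleae. Summed adipocyte markers were 757, 378 and 1760 CPM in knock-in and 228, 414 and 377 CPM in wild-type cochleae, and cartilage markers 268, 598 and 504 CPM against 232, 323 and 211 CPM. Both sums overlapped between the groups, and edgeR called 0 of 11 adipocyte and 0 of 9 cartilage markers. At an unadjusted p under 0.05 edgeR gave 11 and 6 of them higher, beside 4.5% of all genes in either direction. Salivary gland markers summed to 39.9, 92.6 and 221 CPM in knock-in and 23.97, 26.05 and 100.3 CPM in wild-type cochleae, also overlapping, with 1 of 6 tested called higher. Gene by gene, 4 of 11 adipocyte, 3 of 9 cartilage and 4 of 6 salivary gland markers were higher without overlap, and 0 were lower. Of the 8 pigment cell markers, 5 were lower without overlap and 0 higher. Over all genes, 8.72% had groups without overlap in either direction. The 10 stereocilia genes summed to 412, 416 and 398 CPM in knock-in and 391, 415 and 390 CPM in wild-type cochleae. Of these sums, Rdx, also made in many other cells, was 182, 179 and 179 CPM in knock-in and 170, 183 and 186 CPM in wild-type cochleae. The sums thus say little about genes of low level such as Espn, Myo3a and Grxcr1. With the hair cell markers as a covariate, edgeR again called 0 of the 10.

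**Figure D5:**
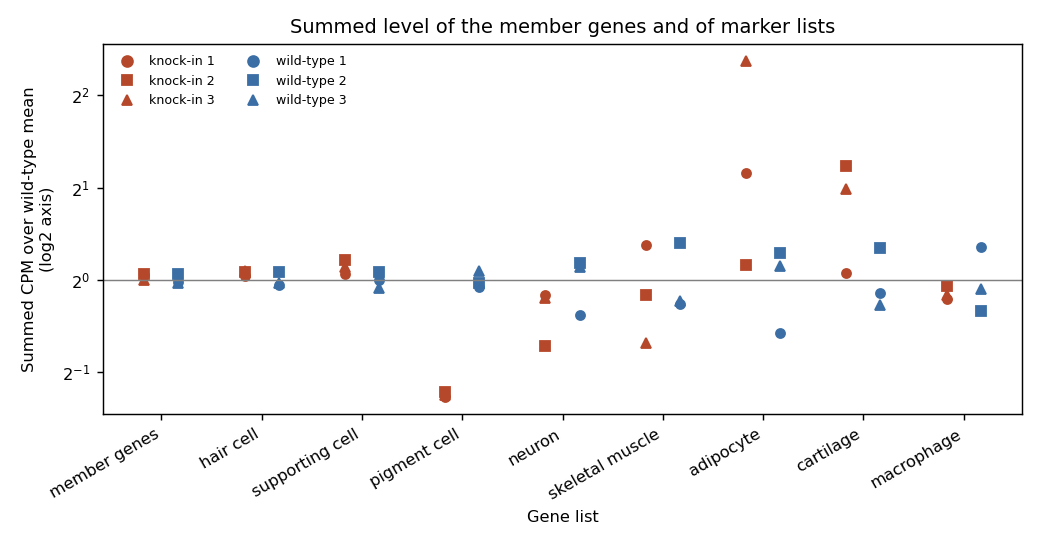
Summed CPM of the 10 stereocilia genes and of 8 marker lists in each library, divided by the wild-type mean of each list (log2 axis), knock-in left of wild type. The stereocilia and hair cell sums stay near 1 in all 6 libraries. Rdx, also made in many other cells, is the largest part of the stereocilia sum, and genes of low level hardly enter it. Pigment cell markers are lower in all 3 knock-in libraries, and adipocyte and cartilage markers spread widely.

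The sequence upstream of the starts was compared over the genes present in the RefSeq table, 8 of the 10, with 12 starts in all. Eps8 and Ptprq were not among them. Of the 250 bases before the Eps8l2 start, 122 lie in annotated exons of Eps8l2 itself, and 15 of the downstream Triobp window lie in exons of Triobp. The motif TATAAA, on either strand, was in 0 of the 12 windows of 250 bases, beside 12.4% of all 32851 windows. The motif GGGCGG, on either strand, was in 7 of 12, beside 32.7%. Median G and C was 60% in the 12 windows and 52.4% in all windows, and the median number of CG was 10.5 against 6. Some of the 12 windows belong to the same gene, so they are not separate cases. CG dinucleotides numbered 21 before Whrn, 14 before Eps8l2, 13 before Clic5, 11 before Myo3a and 4 before Grxcr1, and 3 and 10 before the starts of Rdx. Rdx, the most abundant gene of the set per length, thus had 1 window on each side of the median of 6, and the window of Myo3a, the least abundant, lay above it. Within 50 bases of the Rdx start with 3 CG, 1 annotated transcript begins, and 0 begin there for the start with 10.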

How the data were processed

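Total RNA of 6 cochleae was depleted of ribosomal RNA and sequenced as pairs of 93 bases, per the labels. Per the submitters' processing notes the authors mapped reads with STAR 2.5.2 to GRCm38, and they deposited unnormalized read counts per gene. For the counter and its strandedness, the setting is not given in the sources used here. Further, the authors deposited a DESeq2 table with log2 fold changes and p-values, and transformed values that were not used here.

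Groups followed the genotype labels, and replicate numbers follow the order of the records and pair no mice. The 24 rows of spike-in and transgene sequences stayed out of library sizes and tests; they took 0.00151% to 0.0045% of a library. Symbols, exons and coordinates came from GENCODE M21 on the same build, and 48349 identifiers matched. Tests on counts used R 4.3.3 and edgeR 4.0.16 (filterByExpr, TMM, glmQLFit and glmQLFTest at default settings, two-sided, adjusted p threshold 0.05 over 20733 genes). SEs were derived from the F statistic, and intervals are 95% and not adjusted for the number of genes. Group values are given per library. No 2 libraries were repeats of each other, with a chi-square per degree of freedom of 20.95 to 48.97 over 15 pairs.

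Results were recomputed with RLE or upper-quartile scaling, without a filter, with a filter of 1 CPM in 3 libraries, DESeq2 1.42.0, limma-voom (limma 3.58.1), covariates for Xist and for hair cell markers, a looser threshold (0.1) and each library left out in turn. The genes and lists were chosen with earlier results of these data known. Named genes were the 10 genes, chosen sequence relatives, 8 fixed genes of the other stereocilia list and its 6 with the smallest p, and the 5 nearest profiles (smallest root mean square difference in centred log2 CPM, prior count 2).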

Additional observations from a re-analysis of the deposited data

Results flagged for a closer look

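The Neo cassette sequence was counted but entered no test. Its CPM here are counts over the summed gene counts, without the TMM scaling used elsewhere. Knock-in replicate 1 had 2.06 CPM of it, knock-in replicate 2 had 6.99 CPM, and the third library labelled knock-in had 0.208 CPM, against 0.207, 0.275 and 0.236 CPM in wild-type libraries. The counting intervals of the first 2 lay above those of all wild-type libraries. These exact 95% Poisson intervals cover counting error only.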

How the results depend on the processing

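Under every alternative named in the processing section, 0 of the 10 stereocilia genes, 0 of the 25 other stereocilia genes and 0 of the relatives were called. DESeq2 and limma-voom were run only on all 6 libraries with the main filter, and the other refits used edgeR. Over 139 refitted fold changes of the 10 genes, 0 passed the threshold (lowest adjusted p = 0.624) and 6 changed sign. Rdx turned to -0.0087 with no filter, -0.014 with the hair cell covariate, -0.0026 without knock-in replicate 1 and -0.035 without wild-type replicate 1; Espn turned to 0.012 without knock-in replicate 3 and Triobp to 0.021 without wild-type replicate 1. The cause was not tested. With 1 library left out, values ran from -0.20 to 0.012 for Espn, from -0.035 to 0.024 for Rdx and from -0.17 to 0.021 for Triobp. Grxcr1 had no value under the stricter filter. Counts over all genes, 2 higher and 5 lower, were 46 and 30 with no filter, 9 and 16 in DESeq2, 4 higher with the Xist covariate and 1 and 3 with the hair cell covariate. When a library was left out they were 0 to 13 higher and 2 to 8 lower. Counting error was largest for Grxcr1 and Myo3a. No paired analysis was possible because the labels give no replicate numbers that pair knock-in with wild-type mice.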
